A study of Rattus norvegicus with 20 samples.

Results

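The 10 genes described here are the core of the circadian clock and the output factors it drives: Bmal1 (also called Arntl), Clock, Per1, Per2, Per3, Cry1, Cry2, Dbp, Tef and Nfil3. They were chosen by gene symbol, with symbols brought up to date by gene identifier, and not by their values. Earlier results of these data were known when they were chosen. Of 14217 genes measured on the array with at least 1 probe set of their own, these 10 were all found, with 18 probe sets between them. For each gene the probe set of highest average z is described, and the remaining 8 probe sets serve as a check, which Bmal1, Per1, Cry1, Dbp and Nfil3, with 1 probe set each, do not have. The livers came from male Sprague-Dawley rats, which arrived at 4 weeks of age and were kept 1 to a cage under a light-dark cycle with 12 h of light. For 3 weeks they ate 1 of 4 diets that all held 200 g of protein and 150 g of fat per kg. The TF diet combined tofu with fish oil, TS tofu with soybean oil, CF casein with fish oil, and CS, the control diet, casein with soybean oil. Fish oil made up 50 g/kg of the TF and CF diets, the tofu diets were topped up with casein, and all rats went without food for 3 h before they were killed. Each diet is represented by 5 rats and 5 arrays, without pooling, after the animals with the highest and lowest food consumption had been left out. The hour at which each rat was killed is not given in the sources used here. Rats are called by diet group and by the number the labels give them (TF-7).

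In the liver clock, Bmal1 and Clock pair up and switch on Per and Cry genes through E-box elements, and Per and Cry proteins then shut the pair down. The same pair drives Dbp and the receptor genes Nr1d1 and Nr1d2 (REV-ERBα and REV-ERBβ), which in turn repress Bmal1, Nfil3 and Cry1 through ROR response elements. Dbp and Tef activate genes that carry D-box elements, and Nfil3 represses through the same elements. In rodent liver the mRNAs of Dbp and the Per genes therefore peak at another time of day than those of Bmal1, Clock and Nfil3, so that each liver carries a mark of the hour at which it was taken.

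The promoters of 3 members show these elements as letters. They are printed because Bmal1 holds the element through which the receptors act and Tef an E-box, and because Per2 holds 2 kinds of element. The sequences come from RefSeq, build GRCr8, as the 250 bases before the transcript start that the RefSeq table uses, and other transcripts of the same gene can start further upstream. Capitals mark a match on either strand to the E-box CACGTG or its variant CACGTT, to the D-box TTATGNAA, or to the ROR response element. Bmal1 lies at chr1:176766078-176766327 on the + strand, Tef at chr7:115206577-115206826 on the + strand and Per2 at chr9:99496994-99497243 on the − strand.
Bmal1: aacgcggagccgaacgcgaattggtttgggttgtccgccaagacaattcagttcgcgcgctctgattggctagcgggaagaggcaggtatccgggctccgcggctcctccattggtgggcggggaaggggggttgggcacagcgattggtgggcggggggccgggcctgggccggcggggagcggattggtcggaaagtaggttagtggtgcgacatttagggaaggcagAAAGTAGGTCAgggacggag
Tef: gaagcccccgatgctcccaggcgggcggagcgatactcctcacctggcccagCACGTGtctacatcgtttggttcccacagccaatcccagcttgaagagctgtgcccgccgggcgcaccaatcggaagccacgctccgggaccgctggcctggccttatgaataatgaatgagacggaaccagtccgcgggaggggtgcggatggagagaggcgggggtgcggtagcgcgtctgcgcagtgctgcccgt
Per2: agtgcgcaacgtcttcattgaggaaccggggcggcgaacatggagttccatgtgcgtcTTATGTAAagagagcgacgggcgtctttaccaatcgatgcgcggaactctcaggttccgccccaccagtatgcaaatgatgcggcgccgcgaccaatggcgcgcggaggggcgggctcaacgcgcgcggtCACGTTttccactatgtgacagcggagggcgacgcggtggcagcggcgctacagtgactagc
In Bmal1 the ROR response element begins 20 bases before the transcript start. In Tef the E-box begins 198 bases before it, and in Per2 the D-box, as TTATGTAA, begins 192 bases before it and the E-box variant 62 bases before it. Among 33469 promoter windows of 300 bases in the same table (250 before and 50 after the start), 6.42% hold CACGTG, 4.83% CACGTT, 3.66% TTATGNAA, 0.893% TTATGTAA and 0.356% the ROR response element. Of the other members, Cry2 has the E-box variant 212 bases before its start, on the − strand of the window. The windows of Clock, Per1, Per3, Dbp and Nfil3 hold none of these letters, which says nothing on elements outside the windows. Cry1 has no window in the table. No binding was measured in these livers, so a match is a description of sequence and not a site in use.

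The unit is a z score on a log scale, which the authors obtained by standardizing each array to its own distribution of signals. A difference of 0.2 in z corresponds to 1.41-fold, and folds are given only for genes whose group means all lie above 0.022, the highest median of an array. Probe sets differ in sensitivity, so that the z of 1 gene is not set against that of another. Array medians ran from −0.10 to 0.022. In rats TF-3, TS-1, CF-1 and CS-1 the 5′ beta-actin control read 1.30 to 1.42 in z, against 1.86 to 2.13 in the other 16 rats. The arrays of TF-5, TF-4 and TS-7 correlated least with the others. Where leaving out these rats ends a call, the value without them stands beside it. Of 6 hepatocyte markers 5 were measured, at mean z of 3.10 to 3.57. Precision is limited by how many arrays there are, and each p-value measures the spread between individually housed rats. In whole liver, fewer cells of a type and less RNA per cell cannot be told apart.

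Neither diet factor moved any of the 10 genes past the test. The protein effect is the mean of the tofu diets minus that of the casein diets (10 rats against 10), the oil effect is the mean of the fish oil diets minus that of the soybean oil diets, and both come from limma with adjustment over all 31039 probe sets at a threshold of 0.05. For the protein effect 0 of 10 genes passed, where 0.557% of all probe sets did, and at an unadjusted p under 0.05 the count was also 0. For the oil effect 0 of 10 passed, where 0.193% of all probe sets did, with 1 gene, Nfil3, at an unadjusted p under 0.05. The members' median difference was 0.02 for tofu against casein and −0.01 for fish oil against soybean oil, beside 0.01 and −0.00 over all genes. A share of either size comes to less than 1 gene in 10, so the counts say little apart from the intervals of each gene.

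**Figure D1:**
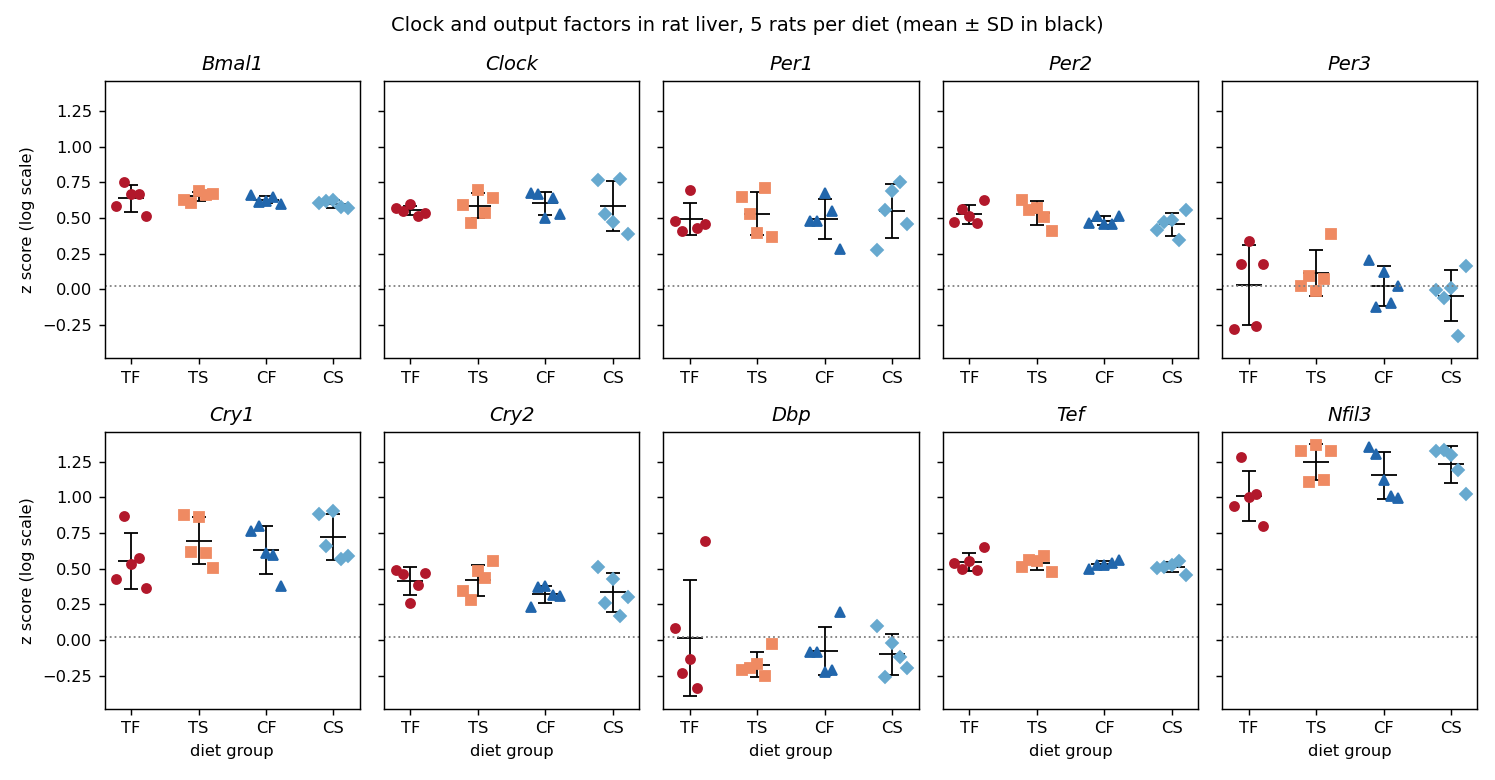
Each panel plots the z score (log scale, vertical axis) of 1 gene in every rat, by diet group (horizontal axis, 5 rats each), with the mean ± SD in black and the highest array median of 0.022 as a dotted line. The diets overlap in all 10 panels, Dbp stands out in rat TF-7 at 0.69, and Bmal1 and Tef lie in narrow bands.

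Neither gene of the activating pair passed. Bmal1, the partner without which the clock stops, read 0.58, 0.75, 0.67, 0.67 and 0.51 in TF rats. It read 0.63, 0.61, 0.69, 0.66 and 0.67 in TS rats, and 0.66, 0.61, 0.62, 0.64 and 0.60 in CF rats. In CS rats it read 0.60, 0.62, 0.62, 0.57 and 0.57. The highest and the lowest rat of the whole series were both on the TF diet (TF-4 and TF-7), and the other 18 rats lay between them. Bmal1 averaged 0.64 ± 0.07 on tofu and 0.61 ± 0.03 on casein (SD, n = 10 each), a difference of 0.03 with a 95% interval of −0.03 to 0.09 (limma adjusted p = 0.750). The far end of that interval corresponds to 1.17-fold. For oil the difference was 0.01, with an interval of −0.05 to 0.07.

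Clock, its partner, ranged from 0.51 to 0.60 in TF rats, 0.47 to 0.70 in TS rats, 0.50 to 0.68 in CF rats and 0.39 to 0.77 in CS rats. The CS group thus spanned all the others. Its differences were −0.02 for tofu against casein (interval −0.12 to 0.08) and −0.01 for fish oil against soybean oil (interval −0.11 to 0.09). The 3 further Clock probe sets gave protein differences of −0.05, 0.03 and 0.01, none past the test.

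The Per genes carry the negative arm of the loop. The means of Per1 were 0.49 ± 0.12 in TF, 0.53 ± 0.15 in TS, 0.49 ± 0.14 in CF and 0.55 ± 0.19 in CS rats (SD, n = 5 each). The protein difference was −0.01 (interval −0.15 to 0.13) and the oil difference −0.04 (interval −0.18 to 0.09). Per2, whose mutation disrupts the clock of mice, averaged 0.53 ± 0.07 on tofu and 0.47 ± 0.06 on casein (SD, n = 10 each). That difference of 0.06, higher than the casein mean in 8 of 10 tofu rats, did not pass (interval −0.01 to 0.13, limma adjusted p = 0.551). The second Per2 probe set went the other way, at −0.03 (interval −0.21 to 0.16).

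Per3, which clocks can lose with little effect in mice, lay close to the array medians, with 11 of 20 rats above 0.022. It ranged from −0.28 to 0.34 in TF rats, −0.01 to 0.39 in TS rats, −0.13 to 0.21 in CF rats and −0.33 to 0.16 in CS rats. Its protein difference was 0.08 (interval −0.09 to 0.26) and its oil difference −0.01 (interval −0.18 to 0.17). The second Per3 probe set had an oil difference of −0.21 (interval −0.37 to −0.05, unadjusted p = 0.0120), with 9 of 10 fish oil rats below the soybean oil mean, and it missed the test over all probe sets (limma adjusted p = 0.689). The 2 probe sets of Per3 therefore give different answers on fish oil, each without a call.

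The Cry genes code for the strongest repressors of the pair. Cry1 read 0.43, 0.87, 0.53, 0.58 and 0.36 in TF rats, 0.88, 0.62, 0.86, 0.61 and 0.50 in TS rats, 0.76, 0.80, 0.61, 0.60 and 0.38 in CF rats, and 0.89, 0.66, 0.90, 0.57 and 0.59 in CS rats. Every diet held both high and low rats, 2.55-fold apart over all 20. It averaged 0.59 ± 0.17 on fish oil and 0.71 ± 0.16 on soybean oil (SD, n = 10 each), a difference of −0.12 that did not pass (interval −0.27 to 0.04, limma adjusted p = 0.964). For tofu against casein the difference was −0.05 (interval −0.20 to 0.10).

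Cry2 averaged 0.42 ± 0.10 on tofu and 0.33 ± 0.10 on casein (SD, n = 10 each), and 8 of 10 tofu rats lay above the casein mean. The difference of 0.09, or 1.17-fold, was the largest protein difference among the 10 genes and did not pass (interval −0.01 to 0.19, limma adjusted p = 0.540). Its second probe set had a difference of 0.03. For oil the difference of Cry2 was −0.01 (interval −0.11 to 0.09).

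Dbp, the output activator with a wide daily swing in rodent liver, was at or below the array medians in most rats. It read 0.08, −0.23, −0.14, −0.34 and 0.69 in TF rats, −0.21, −0.20, −0.17, −0.25 and −0.03 in TS rats, −0.08, −0.09, −0.22, −0.21 and 0.20 in CF rats, and 0.10, −0.26, −0.02, −0.12 and −0.20 in CS rats. Only 4 of 20 rats were above 0.022, and TF-7, at 0.69, was the highest of all. The oil difference was 0.10 (interval −0.11 to 0.31) and the protein difference 0.01 (interval −0.20 to 0.22). No fold is given, since the means of all 4 groups lie under the highest array median.

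Nfil3, the repressor that competes with Dbp and Tef for the D-box, had the lowest unadjusted p for either diet factor among the brightest probe sets. By the adjusted p, Cry2 (limma adjusted p = 0.540) and Per2 (limma adjusted p = 0.551) came nearer, both for protein. It read 0.94, 1.28, 1.002, 1.02 and 0.80 in TF rats, 1.32, 1.10, 1.36, 1.12 and 1.32 in TS rats, 1.35, 1.30, 1.12, 1.01 and 0.99 in CF rats, and 1.32, 1.33, 1.29, 1.19 and 1.02 in CS rats. Of the TF rats TF-4 was highest at 1.28, with TF-6 next at 1.02, while the CF rats spread over most of the range. On fish oil it averaged 1.08 ± 0.18 and on soybean oil 1.24 ± 0.12 (SD, n = 10 each), a difference of −0.16 or 1.31-fold lower, with an interval of −0.29 to −0.02. The unadjusted p was 0.0265 and the limma adjusted p over all probe sets 0.814, so this difference did not pass.

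By diet, Nfil3 averaged 1.01 ± 0.18 in TF, 1.25 ± 0.12 in TS, 1.16 ± 0.17 in CF and 1.23 ± 0.13 in CS rats (SD, n = 5 each). From high to low the order was TS, CS, CF and TF, and each pair of neighbours lay within 1 SD of each other. TF lay −0.24 from TS (interval −0.43 to −0.04, limma adjusted p = 0.738) and −0.22 from CS (interval −0.41 to −0.03, limma adjusted p = 0.422), in both cases lower than the other group's mean in 4 of 5 rats. On casein, CF lay −0.08 from CS (interval −0.27 to 0.12). Whether the oil difference was larger on tofu was tested by the interaction, −0.16 for Nfil3, which had an unadjusted p of 0.229 and did not pass.

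Tef, the close relative of Dbp, varied little by its brightest probe set, at 0.55 ± 0.06 in TF, 0.54 ± 0.04 in TS, 0.53 ± 0.02 in CF and 0.51 ± 0.04 in CS rats (SD, n = 5 each). The protein difference of 0.02 had an interval of −0.03 to 0.07 and the oil difference of 0.01 one of −0.04 to 0.07. A second Tef probe set was the 1 of 18 member probe sets that passed for the protein effect, where 0.557% of all probe sets did. It read 0.19, 0.36, 0.25, 0.11 and 0.18 in TF rats, 0.20, 0.17, 0.31, 0.08 and 0.31 in TS rats, −0.09, 0.09, 0.04, 0.02 and 0.04 in CF rats, and −0.06, −0.14, 0.03, 0.15 and −0.01 in CS rats. The groups overlapped through CS-6 and CF-2 on 1 side and TS-5 and TF-6 on the other, and all 10 tofu rats lay above the casein mean.

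This probe set averaged 0.22 ± 0.09 on tofu and 0.01 ± 0.09 on casein (SD, n = 10 each), a difference of 0.21 (interval 0.12 to 0.30, limma adjusted p = 0.0287). The difference was 0.22 for TS against CS and 0.20 for TF against CF. The probe set averaged 0.0216 in CF and −0.006 in CS rats, under the highest array median of 0.022, so no fold is given. The call was lost without the 4 rats of low 5′ beta-actin (adjusted p = 0.151), without the 3 least correlated arrays (adjusted p = 0.149), with the rat number as a block (adjusted p = 0.226), and when CS-1, CS-2, CS-7, CF-1, CF-6, TS-4, TS-7 or TF-5 was left out (highest adjusted p for a single rat 0.0618). The size stayed between 0.17 and 0.23 in all these fits. The brightest Tef probe set and the faintest one, at 0.04 (interval −0.16 to 0.23), did not pass, so that the probe sets of Tef do not share the call.

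**Figure D2:**
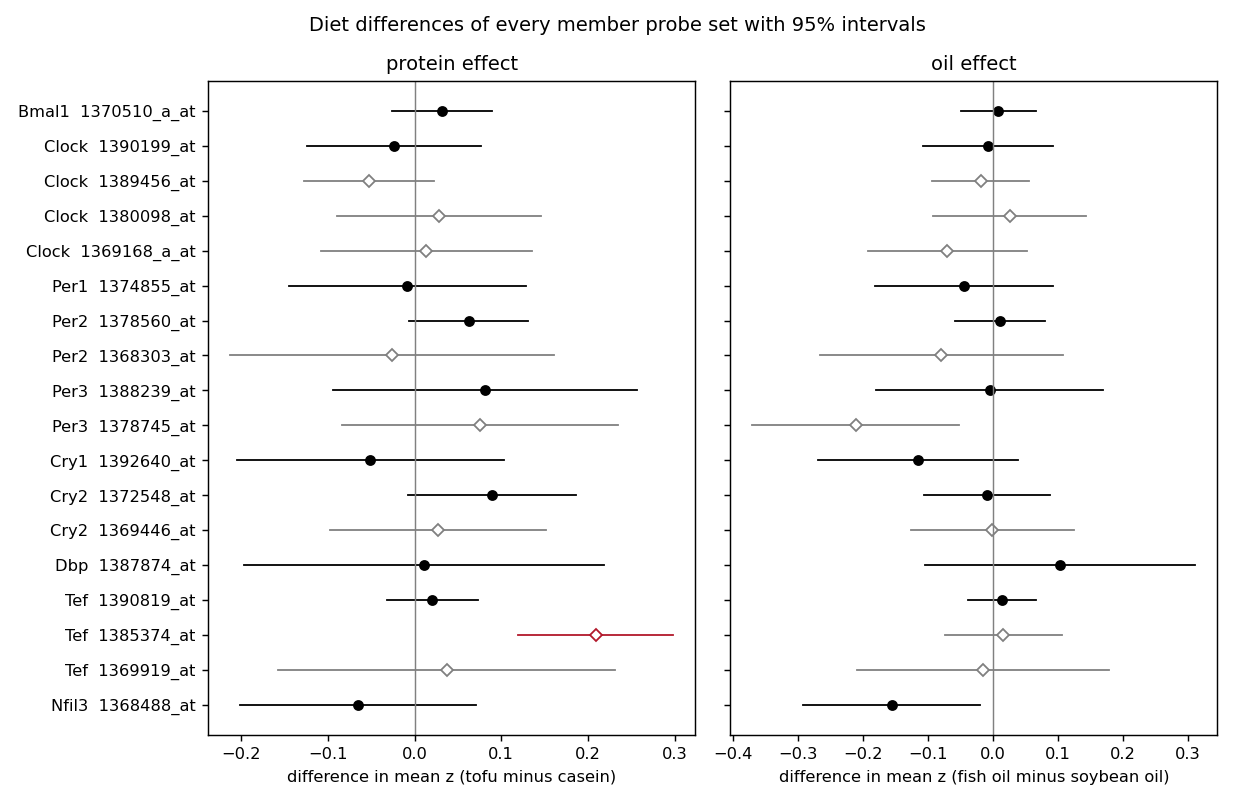
Points show the difference in mean z (horizontal axis) of every member probe set, tofu minus casein on the left and fish oil minus soybean oil on the right, with 95% intervals as lines. Filled circles are the brightest probe set of each gene, open diamonds the others, and the second Tef probe set, in red at 0.21, is the single one past the test.

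The intervals give the range of differences that these rats allow. For tofu against casein, those of 6 of 10 genes lay wholly within 0.2 in z of 0, that is under 1.41-fold in either direction, with Per3, Cry1, Dbp and Nfil3 as the exceptions. For fish oil against soybean oil 7 of 10 did, with Cry1, Dbp and Nfil3 as the exceptions. The interaction, which asks whether the oil difference depended on the protein, was not past the test for any member or for any of the 31039 probe sets (0%, though 1065 reached an unadjusted p under 0.05), with member values from −0.16 for Nfil3 to 0.17 for Dbp. In the simple comparisons 0 of 10 members passed for TF against TS (0.0677% of all probe sets), TF against CF (0.0677%), TF against CS (0.457%), TS against CS (0.0709%) and CF against CS (0.0451%). At an unadjusted p under 0.05, Nfil3 alone was found, in TF against TS and in TF against CS.

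Some members moved with each other from rat to rat. To take the diets out, each value was set against the mean of its own diet group, and 45 pairs of members were compared over 20 rats by Pearson's r with 100000 permutations within diet groups and Benjamini-Hochberg adjustment over the 45. Nfil3 and Cry1 rose and fell together (r = 0.78, permutation p = 0.000380, adjusted p = 0.0171, Spearman's rho = 0.72, adjusted p = 0.0265). Without CF-7 and TF-4, the rats with the most distant Cry1 values, r was 0.70. Nfil3 and Bmal1 did so too (r = 0.71, permutation p = 0.00116, adjusted p = 0.0261, rho = 0.71, adjusted p = 0.0265), with r = 0.52 without TF-4 and TF-7. Bmal1 with Cry1, the remaining pair of these 3 genes, had r = 0.62 and missed the adjustment (permutation p = 0.00701, adjusted p = 0.105, rho = 0.62, adjusted p = 0.146).

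Both calls were lost without the 4 rats of low 5′ beta-actin, with r = 0.76 for Nfil3 and Cry1 (adjusted p = 0.205) and r = 0.74 for Nfil3 and Bmal1 (adjusted p = 0.220). Nfil3 with Cry1 kept its call with the diets left in (r = 0.81), after quantile normalization (r = 0.75) and without the 3 least correlated arrays (r = 0.83). Nfil3 with Bmal1 lost it in all of these (r = 0.49, 0.63 and 0.57). Clock tended the same way with Nfil3 (r = 0.43, permutation p = 0.0481) and did not pass (adjusted p = 0.331).

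The output activators ran opposite to this trio in sign, without a call. Dbp with Bmal1 had r = −0.68 (permutation p = 0.0460, adjusted p = 0.331) and rho = −0.40, and Dbp with Tef r = 0.61 (permutation p = 0.0492, adjusted p = 0.331) and rho = 0.32. Both rested on rat TF-7, which had the highest Dbp and Tef and the lowest Bmal1, Cry1 and Nfil3 of all 20 rats. Without it the values were −0.33 and 0.18 over 19 rats. Tef with Nfil3 had r = −0.49 (permutation p = 0.0579). Per1 and Cry2 leaned apart (r = −0.49, permutation p = 0.0588), and r without CS-1 and CS-6 was −0.25. No other pair of the 45 passed.

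**Figure D3:**
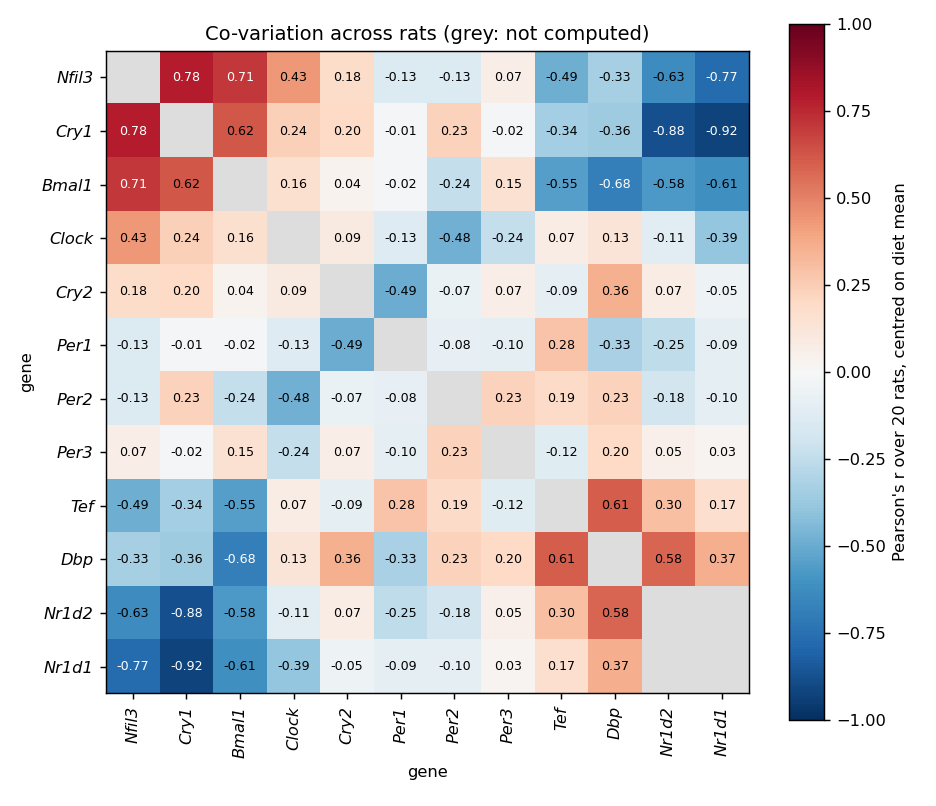
Each square gives Pearson's r over 20 rats between 2 genes, after the mean of each diet was taken out, on a scale from −1 (blue) to 1 (red), with grey where no pair was computed. Nfil3, Cry1 and Bmal1 form a red corner (0.62 to 0.78), and their squares with Nr1d1 and Nr1d2 are blue (−0.92 to −0.58).

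The receptors Nr1d1 and Nr1d2, which are not members, ran opposite to the same 3 genes, and the 20 pairs of a member with either of them were added after their spread had been seen. Nr1d1 read 0.84, −0.35, 0.26, 0.51 and 0.98 in TF rats, −0.05, 0.23, −0.40, 0.15 and 0.83 in TS rats, −0.44, −0.44, 0.01, 0.32 and 0.73 in CF rats, and −0.59, 0.06, −0.29, 0.02 and 0.48 in CS rats. Each diet held rats on both sides of the array medians, and the rat numbered 7 was the highest of each. Cry1 was nearly a mirror image of it. The pair had r = −0.92 (permutation p = 1e-05, the smallest that 100000 permutations can give, adjusted p = 0.0001 over the 20 pairs) and rho = −0.91, and without CF-7 and TF-4 r was −0.89.

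With Nr1d2, Cry1 had r = −0.88 (permutation p = 1e-05, adjusted p = 0.0001, rho = −0.88) and r = −0.82 without the same rats. Both calls held in all 4 alternatives, that is with the diets left in, after quantile normalization and without the 4 or the 3 doubtful rats (r from −0.92 to −0.85). The widest gap in the Cry1 values with at least 6 rats on each side lay between 0.02 and 0.13 above the diet mean. It had 7 rats above it and 13 below. Within these, r with Nr1d1 was −0.59 and −0.81, and with Nr1d2 −0.68 and −0.88. The cut was taken from these same values, so these r are a description without a test.

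Nfil3 followed with r = −0.77 for Nr1d1 (permutation p = 0.000770, adjusted p = 0.00513, rho = −0.75) and −0.63 for Nr1d2 (permutation p = 0.00984, adjusted p = 0.0394, rho = −0.66). Bmal1 had r = −0.61 with Nr1d1 (permutation p = 0.00851, adjusted p = 0.0394), but its rho of −0.59 missed the adjustment (adjusted p = 0.0537) and r without TF-4 and TF-7 was −0.41. These 3 calls were lost without the 4 rats of low 5′ beta-actin, where r was −0.73, −0.58 and −0.61 (adjusted p = 0.0509, 0.147 and 0.141), and that of Bmal1 also with the diets left in (r = −0.41). All 3 genes are known targets of repression by REV-ERB in rodent liver. Whether that repression lies behind these correlations was not tested, and the hour at which each rat was killed is not given. Of the other 7 members, Dbp with Nr1d2 came nearest (r = 0.58, permutation p = 0.0205, adjusted p = 0.0683, rho = 0.32).

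**Figure D4:**
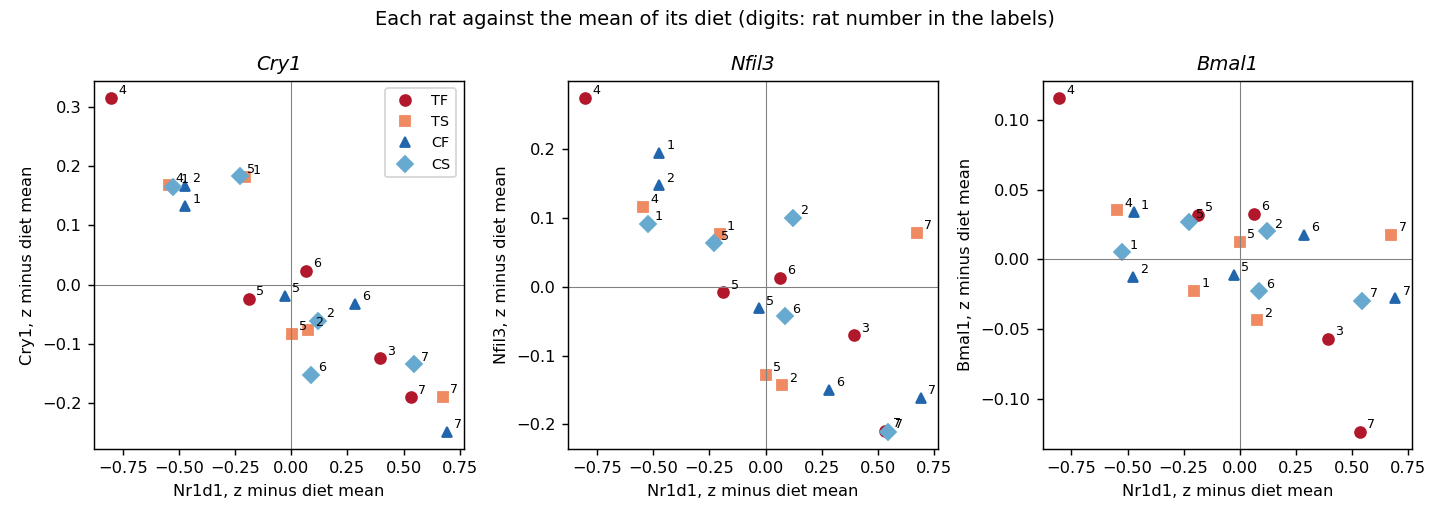
Each point is a rat, with the Nr1d1 z minus its diet mean on the horizontal axis and that of Cry1, Nfil3 or Bmal1 on the vertical axis, coloured by diet and marked with the rat number. The points fall from upper left to lower right in each panel (r = −0.92, −0.77 and −0.61), with the rats numbered 7 at the right edge.

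Part of this co-variation went with the rat number, whose meaning is not given in the sources used here. The 4 rats numbered 7 lay 0.53 to 0.69 above the Nr1d1 mean of their diet and 0.13 to 0.25 below it for Cry1. The 3 rats numbered 1 lay 0.20 to 0.52 below it for Nr1d1 and 0.13 to 0.18 above it for Cry1, and the 2 numbered 4 lay 0.55 to 0.80 below it for Nr1d1. With both diet and rat number taken out, which leaves 10 degrees of freedom, r was −0.57 for Cry1 with Nr1d1, −0.68 for Cry1 with Nr1d2 and −0.35 for Nfil3 with Nr1d1. For Bmal1 with Nr1d1 it was −0.03, without a test, and 10 degrees of freedom cannot show that a relation is absent within numbers. For Nfil3 it was 0.39 with Cry1 and 0.65 with Bmal1. The numbers are unevenly spread, since 1 TF rat alone bears number 3 and no casein rat bears number 4.

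The spread between rats of 1 diet differed widely among the members. Pooled over the 4 diets, the SD was 0.24 for Dbp, 0.20 for Per3, 0.17 for Cry1, 0.15 each for Per1 and Nfil3, 0.11 for Clock, 0.10 for Cry2, 0.07 for Per2, 0.05 for Bmal1 and 0.04 for Tef. The place of Dbp owes much to rat TF-7, at 0.69. By diet its SD was 0.41 in TF rats, against 0.09 in TS, 0.17 in CF and 0.14 in CS rats. Low z values spread more in general, so each SD was ranked among genes within 0.1 of its mean z. There Cry1 was at percentile 96.2, Nfil3 at 94.2, Per1 at 94.0, Dbp at 93.2 and Per3 at 92.8. Clock was at 85.6, Cry2 at 78.6 and Per2 at 46.6. Bmal1 at 21.7 and Tef at 8.22 were steadier than most genes of like level. Nr1d1 and Nr1d2 were at 99.7 and 99.1, with SDs of 0.47 and 0.31.

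As 1 number for each rat, the mean deviation of Dbp, Tef, Per1, Per2 and Per3 minus that of Bmal1, Clock, Npas2 and Nfil3 was taken. It is a description without a test. The deviations were not scaled to equal spread, so a gene of wide spread weighs more. Genes averaged together did not all vary together. For example, r was −0.33 for Per1 with Dbp and 0.16 for Bmal1 with Clock, but 0.61 for Dbp with Tef and 0.71 for Bmal1 with Nfil3. It was 0.02, −0.07, 0.13, −0.10 and 0.39 in TF rats, −0.04, 0.05, −0.13, 0.02 and −0.06 in TS rats, −0.07, −0.08, 0.04, 0.00 and 0.08 in CF rats, and −0.11, −0.07, 0.01, −0.08 and 0.08 in CS rats. Rat TF-7 stood alone at the top, with TF-5 next, and the other 19 rats spanned −0.13 to 0.13 with no diet to 1 side. TF-7 also had the highest Dbp, at 0.69, which enters its score. The group means were 0.07 ± 0.20 in TF, −0.03 ± 0.07 in TS, −0.01 ± 0.07 in CF and −0.03 ± 0.08 in CS rats (SD, n = 5 each).

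**Figure D5:**
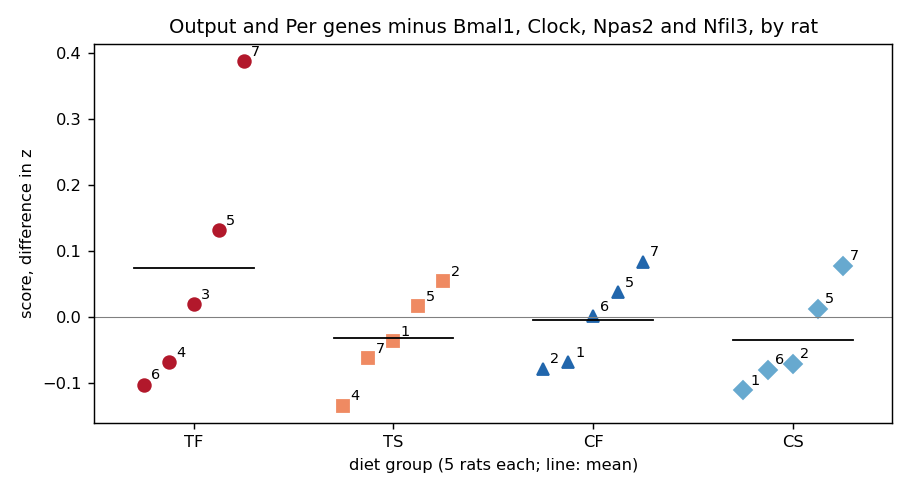
The vertical axis gives, for each rat, the mean deviation in z of Dbp, Tef and the Per genes minus that of Bmal1, Clock, Npas2 and Nfil3, by diet group (horizontal axis, 5 rats each, line at the mean, digits for the rat number). TF-7 reads 0.39, and the other rats of all 4 diets lie between −0.13 and 0.13.

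The rest of the clock loop held no gene past the test either. Of 19 listed genes 15 were measured. For protein 0 passed, where 0.557% of all probe sets did, and for oil 0, where 0.193% did. An unadjusted p under 0.05 was reached by 1 of these genes for protein and 0 for oil. Over all 31039 probe sets, 3159 and 1722 reached it. The median difference of the 15 genes was −0.00 for tofu against casein and −0.02 for fish oil against soybean oil. The largest were Nr1d1, at 0.31 (interval −0.10 to 0.73) for protein and 0.20 (interval −0.22 to 0.61) for oil, and Bhlhe40, a repressor of the Bmal1 and Clock pair, at −0.29 (interval −0.52 to −0.06) and −0.18 (interval −0.41 to 0.04). Nr1d2 followed at 0.18 and 0.15. Bhlhe41 had a protein difference of 0.10 and Timeless an oil difference of −0.07.

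Of 18 genes known to be driven by the clock in liver, 1 passed for protein, where 0.557% of all probe sets did. For oil 0 passed, where 0.193% did. At an unadjusted p under 0.05 there were 6 for protein, where 3159 of 31039 probe sets were, and 1 for oil, where 1722 were. The list was chosen with earlier results of these data known, so its counts say nothing on clock outputs as a class. The 6 were Nr1i3, Cyp7a1, Tfrc and Insig2, with positive differences, and Rgs16 and Cdkn1a, with negative ones. Nr1i3 (CAR, a receptor for drugs and a target of the Dbp and Tef group in mice) averaged 0.79 on tofu and 0.37 on casein, a difference of 0.42 or 2.06-fold (interval 0.27 to 0.56, limma adjusted p = 0.00551). A block by rat number ended this call, at a difference of 0.39 (adjusted p = 0.0638). It read 0.78, 1.06, 0.81, 0.86 and 0.84 in TF rats, 0.84, 0.75, 0.81, 0.48 and 0.70 in TS rats, 0.60, 0.52, 0.71, 0.24 and 0.65 in CF rats, and 0.37, −0.05, 0.35, 0.29 and 0.07 in CS rats. All TF rats lay above all casein rats, and of the TS rats TS-5 and TS-7 lay below CF-5, the highest casein rat. The oil difference of 0.25 (interval 0.10 to 0.39, adjusted p = 0.349) did not pass. Cyp7a1, the first enzyme of bile acid synthesis, had a protein difference of 0.64 (adjusted p = 0.0900) and Tfrc, the transferrin receptor, one of 0.59 (adjusted p = 0.126). Rgs16, a brake on G protein signals, had one of −0.28. The list's median protein difference was −0.01, beside 0.01 over all genes.

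Signals that can shift a liver clock were read beside these results, and their part in them was not tested. Of 9 measured glucocorticoid-responsive genes 1 passed for protein, where 0.557% of all probe sets did, and 0 for oil, where 0.193% did. The 1 was Pdk4, a brake on glucose oxidation that also answers to fasting. It fell to 1.27 on tofu, against 1.82 on casein, by 0.55 in z or 2.59-fold (interval −0.73 to −0.37, limma adjusted p = 0.00422). Without the 4 rats of low 5′ beta-actin the difference was −0.49 and did not pass (adjusted p = 0.0590). The other 8 did not pass, among them Mt2A (0.21), Sgk1 (−0.16) and Dusp1 (−0.10). Of 5 measured genes that respond to body temperature or heat shock 0 passed for either factor. At an unadjusted p under 0.05 there was 1 for protein, Dnajb1, at −0.15 (limma adjusted p = 0.233), and 0 for oil. Markers of Kupffer, endothelial, stellate and bile duct cells and of leukocytes, 21 measured of 25 listed, had 0 past the test in limma for either factor. At an unadjusted p under 0.05 there were 3 markers for protein and 3 for oil. Over all 31039 probe sets, 3159 reached that p for protein and 1722 for oil.

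Outside the clock, genes that followed Dbp or Bmal1 from rat to rat were sought among 9019 non-member genes with mean z above 0.022, as a description without a test. The highest r with Dbp were those of Hsd17b2 (0.76), Capza1 (0.74), Kctd5 (0.73), Sh3glb1 (0.73) and Ubr7 (0.73), and the lowest those of Ccl27 and Ppard (both −0.80), Klhl18 (−0.73), Cyp27a1 (−0.72) and Llgl1 (−0.71). Nr1d2 ranked 70 with r = 0.58 and Nr1d1 699 with r = 0.37. For Bmal1 the highest were Gprc5c (0.82), Srgap2 (0.81), Ube2o (0.79), Cox10 (0.78) and Tomm40 (0.77), and the lowest Prkrip1 (−0.80), Rita1 (−0.75), Mutyh (−0.74), Hsd17b2 (−0.70) and 4933427D14Rikl (−0.70). Hsd17b2, an enzyme that inactivates sex steroids, was thus near the top for Dbp and near the bottom for Bmal1. Rat TF-7 had the highest Dbp and the lowest Bmal1 of all 20 rats. Without it r of Dbp with Bmal1 was −0.33, against −0.68 with it. The lists were not recomputed without TF-7, so how far they rest on this 1 rat is not known. Nr1d1 and Nr1d2 stood at ranks 8987 and 8954 of 9019 for Bmal1 (r = −0.61 and −0.58).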

How the data were processed

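Total RNA from 20 rat livers was hybridised to Affymetrix rat genome arrays, and the deposited values are a score for each probe set, the z score on a log scale that the authors obtained from the SuperNORM service. Software version and background treatment are not given in the sources used here. Of 31099 probe sets, 57 controls and 3 with fewer than 3 values in a group were left out. Symbols were updated by gene identifier (20764 updated, 68 not). A linear model of the 4 diet means was fitted in limma 3.58.1 (R 4.3.3) to 31039 probe sets, and p-values were Benjamini-Hochberg adjusted over all of them. Correlations used Python 3.11.15 and numpy 2.4.6. The members were chosen by gene symbol and not by their values, though earlier results of these data were known. The further gene lists were also chosen with those results known. All members are named, and of each further list the genes past the test and up to 3 or 4 with the largest differences. Tested on simulated data over all probe sets, the fit found 37.3% of protein differences of 0.2 in z and 82.1% of those of 0.4, and 38.8% and 83.6% for oil. There 67 probe sets per factor were shifted at each of these sizes, beside others shifted by 0.8. The noise was normal and independent, with the SD of each probe set and no effect of array or rat number. The rates are therefore not those of a single member in the real data. The alternatives were other scalings, filters and variance models, array weights, blocks, other probe sets and fits without single rats. Protein sequences were not used here.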

Additional observations from a re-analysis of the deposited data

Results flagged for a closer look

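In 3 of 48 groups of 5 rats (12 genes, the 10 members with Nr1d1 and Nr1d2, in 4 diets) 1 rat lay far from the other 4, by Dixon's test at its 95% value of 0.71. Chance flags about 1 in 20 groups. Per1 read 0.69 in rat TF-5, with the next TF rat at 0.48. Per3 read 0.39 in rat TS-7, with the next TS rat at 0.10. Nr1d2 read 0.95 in rat TS-7, with the next TS rat at 0.37. TF-5 and TS-7 are among the 3 arrays that correlated least with the others.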

How the results depend on the processing

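Under the alternatives that keep all 20 rats, leave out the doubtful ones or use other probe sets, 440 values were recomputed and 382 kept both their direction and their side of the threshold. By its brightest probe set, none of the 10 genes passed for protein or oil in any of them. By other probe sets, Tef alone passed, for protein with its second probe set (0.209, adjusted p = 0.0287). For protein, all probe sets past the test numbered 358 among bright probe sets, 289 with a variance trend and robust estimation, 72 without the 4 rats of low 5′ beta-actin and 74 without the 3 least correlated arrays, against 173, and member probe sets past it numbered 0 in each of the last 2. For oil they numbered 34 without the 3 arrays, against 60. Fits of only the 2 groups compared gave 10 for TF against TS, 6 for TF against CF, 66 for TF against CS, 12 for TS against CS and 0 for CF against CS. Pairs of members called numbered 1 with the diets left in, 1 after quantile normalization, 0 without the 4 rats and 1 without the 3 arrays, against 2, and pairs with the receptors 2 without the 4 rats, against 5. With the block by rat number Per1 and Per3 turned their sign, as given in the next paragraph. Differences in z that turned their sign in the other settings reached −0.0800 (Per2, oil), and none had been past the test. They were, for protein, Dbp after quantile normalization (−0.00255) and equal scaling (−0.00690), Clock without the 4 rats (0.00612) and by its faintest (0.0136) and another dim probe set (0.0284), Per2 by its second probe set (−0.0256) and Per3 without the 3 arrays (−0.0276). For oil they were Bmal1 (−8.76e-05), Clock (0.00562) and Cry2 (0.00191) with array weights, Clock (0.00375), Per3 (0.00385) and Cry2 (0.00545) without the 4 rats, and Bmal1 (−0.0144), Per2 (−0.00909), Cry2 (0.0255) and the second Tef probe set (−0.00118) without the 3 arrays. By other probe sets the oil value was 0.0258 for Clock, −0.0800 for Per2 (−0.0349 for the mean of its probe sets) and −0.0153 for Tef. The cause of these changes was not tested. Leaving out single rats gave 114 (without CS-2) to 164 probe sets for protein and 0 to 1 member probe sets. The protein value then ran from −0.0417 to 0.0174 for Per1 and −0.0732 to 0.0550 for Dbp, lowest without TF-7, and the oil value from −0.00645 to 0.0235 for Bmal1, −0.0322 to 0.0154 for Clock, −0.00565 to 0.0226 for Per2, −0.0436 to 0.0328 for Per3, −0.0295 to 0.0128 for Cry2 and −0.00186 to 0.0359 for the second Tef probe set. Outside the members, Nr1i3 lost its call for protein with the block by rat number and Pdk4 without the 4 rats (adjusted p = 0.0590).

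What the rat numbers mean is not given in the sources used here, and they were not taken to pair the rats, since not every pair of the same number deviated together. Over 22 such pairs, deviations from the diet means correlated at −0.0982 to 0.127, with a mean of 0.0211. Over the 128 pairs of different number they correlated at −0.116 to 0.220, with a mean of −0.00358. Of 20 rats 6 correlated best with their own number, and the count that chance gives was not computed. These values therefore do not exclude a shared deviation by number. With the replicate block by rat number, 91 probe sets passed for protein and 27 for oil, member probe sets 0, the second Tef probe set had an adjusted p of 0.226, Nr1i3 one of 0.0638, and Per1 (0.0202, protein) and Per3 (0.0608, oil) turned their sign.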

Other observations

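The rat number of the labels was tested as a factor beside the 4 diets with limma, a test added after the values of single rats had been seen. Of 31039 probe sets 54 passed (0.174%), and 2587 reached an unadjusted p under 0.05 (chance alone gives 1552). Nr1d1 was 1 of the 54, at rank 7 (adjusted p = 0.0127). No member passed, and Cry1 came nearest (adjusted p = 0.229), followed by Per3 (0.382). Without the 4 rats of low 5′ beta-actin 0 probe sets passed, with 1603 at an unadjusted p under 0.05, and Nr1d1 was at rank 3 (adjusted p = 0.283). Without the 3 least correlated arrays 9 passed and Nr1d1 did not (adjusted p = 0.223). The arrays with low 5′ beta-actin include all 3 rats numbered 1, so that in those diets the number and this control cannot be told apart.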
